A study of Mus musculus with 9 samples.

Results

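Cells that answer an inflammatory stimulus make cytokine mRNAs quickly and also destroy them quickly, and the balance is set by proteins that bind the mRNA. The 8 genes described here encode such regulators: Zfp36, Zfp36l1, Zfp36l2, Zc3h12a, Zc3h12c, Rc3h1 and Khsrp, whose products promote decay, and Elavl1, whose product protects its targets. They were chosen by name for this role, and all 8 had a row of their own among the 21212 rows of the mRNA arrays. Many short-lived cytokine mRNAs carry AU-rich elements in their 3′ untranslated region. Tristetraprolin, the product of Zfp36, and its relatives Zfp36l1 and Zfp36l2 bind these elements with zinc fingers of the CCCH type and recruit the CCR4-NOT complex, which shortens the poly(A) tail. Regnase-1, encoded by Zc3h12a, is an endonuclease that cuts stem-loops in the same region, and roquin, encoded by Rc3h1, binds similar stem-loops. KSRP (Khsrp) brings decay enzymes to AU-rich mRNAs, whereas HuR (Elavl1) binds them and stabilizes them.

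Microglia, the resident macrophages of the brain, were prepared from P0-P1 pups of the wild-type CD-1 strain, with brains of a litter pooled. The adherent fraction from a density gradient was grown with M-CSF and GM-CSF, kept overnight without serum and then given, for 4 h, 100 ng/ml LPS (M1-skewing), 20 ng/ml IL-4 (M2a-skewing) or the same volume of PBS (resting). Each condition was measured on 3 arrays, 9 in all, and values are log2 expression after RMA. No source says that the 3 arrays of a condition came from separate cultures, so the p-values speak only to how these arrays vary, and that variation may be technical. In a mixed bulk sample, fewer cells of a type cannot be told apart from less RNA per cell, and because each gene has its own probes, the level of 1 gene was not set against that of another.

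The third LPS array and the third PBS array stood apart from the other arrays of their own conditions. On both, all 14 measured genes of motile cilia, a feature of ependymal cells, lay above replicates 1 and 2 of the same condition, by a mean of 1.56 log2 units in LPS cells and 1.67 in PBS cells. The 9 measured oligodendrocyte lineage markers averaged 1.12 and 1.10 higher. Among microglial markers, Csf1r, the receptor for M-CSF, measured 10.85, 10.77 and 10.97 on the LPS arrays, 11.80, 11.85 and 11.90 on the IL-4 arrays and 11.45, 11.55 and 11.85 on the PBS arrays. The 10 measured markers averaged 8.81 to 8.94 in LPS-treated cells, 9.21 to 9.32 in IL-4-treated cells and 9.24 to 9.84 in PBS-treated cells, and 8 of the 10 fell with LPS while 1 rose. With IL-4 these markers had a median change of -0.07, with 0 called higher and 1, Trem2 (-0.47), called lower. Csf1r was 0.23 above PBS with IL-4 and was not called. Astrocyte markers were measured at means of 9.84 to 10.3 (LPS), 10.13 to 10.15 (IL-4) and 9.90 to 10.5 (PBS). With IL-4, 4 of 8 fibroblast and meningeal markers rose, as did 2 of 6 endothelial markers, Cdh5 (1.14) and Pecam1 (0.79). The endothelial list had a median change of 0.20, and its members Kdr (-0.32) and Cldn5 (-0.23) were lower without a call. Both were called lower once the third LPS and PBS arrays were left out (-0.35 and -0.27). Among all rows 3.35% were called higher and 2.05% lower with IL-4, and with LPS 15.4% were called higher and 22.4% lower. The part of these other cells in the results below was not tested, and results are also given for the 7 arrays without the third LPS and PBS arrays. Without the third PBS array, the IL-4 arrays stand only against PBS arrays with lower cilia values. All 14 cilia genes were then called higher with IL-4, and none over the 9 arrays. The 7-array fit called more rows in every comparison: 19.1% higher and 28.3% lower in LPS against PBS, 16.6% and 13.5% in IL-4 against PBS, and 29.8% and 32.3% in LPS against IL-4.

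The decay regulators did not respond as one group. Zc3h12a, Zc3h12c and Zfp36 rose 4.08- to 5.27-fold with LPS, and Rc3h1 rose by much less. Zfp36l2 fell, and no change passed the test for Zfp36l1. With IL-4, Zc3h12a was 1.62-fold and Zfp36 1.33-fold higher than in resting cells, and Zfp36l2 was lower. The plot of every array shows each of the 8 genes on its own scale.

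**Figure D1:**
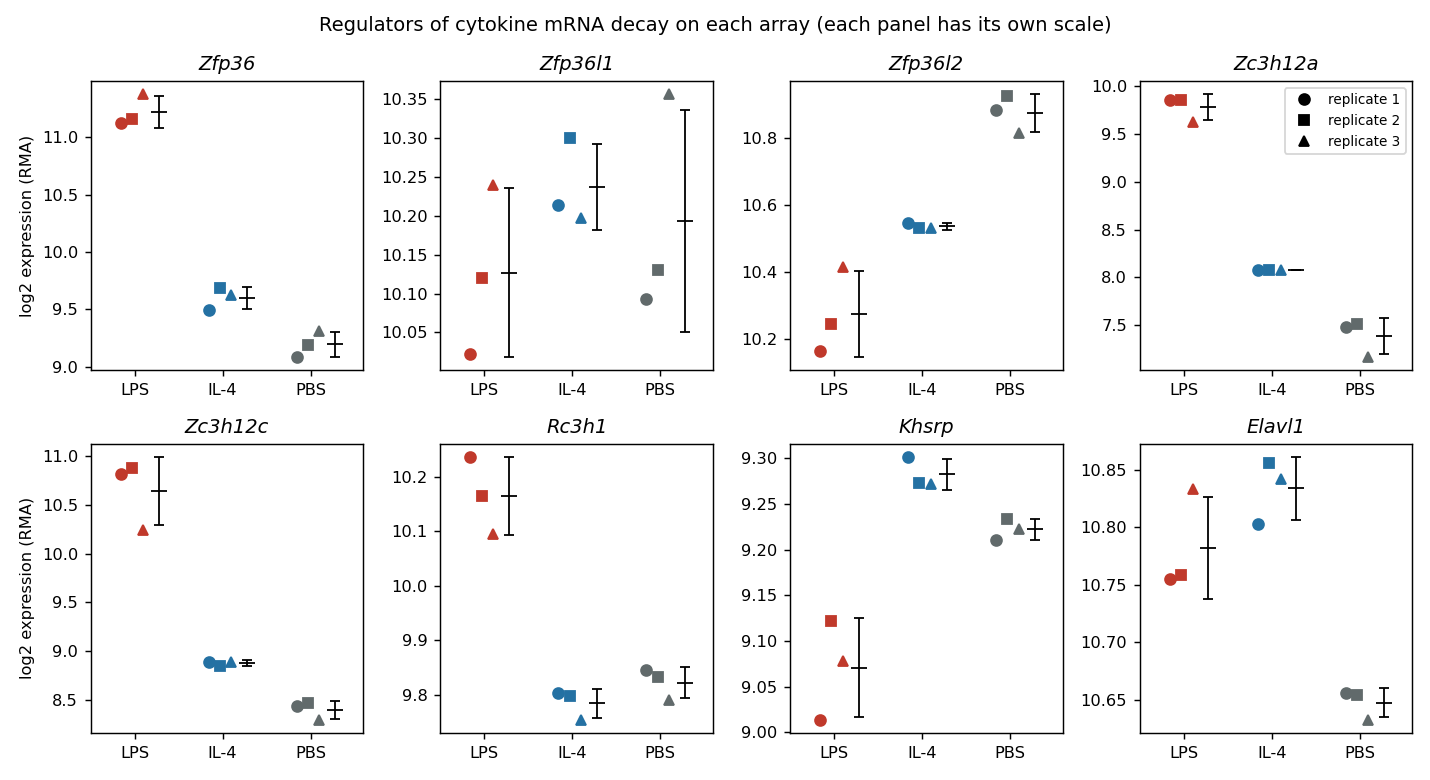
Log2 expression (RMA) of the 8 genes on each of the 9 arrays, by condition, with the mean and SD of 3 arrays beside the points and a marker shape per replicate number. The LPS arrays of Zfp36, Zc3h12a and Zc3h12c lie far above all others, those of Zfp36l2 lie below, and the 3 conditions overlap for Zfp36l1.

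The letters upstream of the start site are shown for 3 genes. Zfp36 and Zc3h12a rose with LPS and belong to different families, and Zfp36l1 is the relative of Zfp36 with no called change over the 9 arrays. Each line gives the 250 bases before the start, 5′ to 3′, from the RefSeq promoter table (GRCm38.p6, minus strand). The windows are chr7:28379229-28379478 for Zfp36, chr4:125127882-125128131 for Zc3h12a and chr12:80113014-80113263 for Zfp36l1. Capitals mark a CArG box in Zfp36, GC boxes in Zc3h12a, and TGANTCA and TATAAA in Zfp36l1.
Zfp36: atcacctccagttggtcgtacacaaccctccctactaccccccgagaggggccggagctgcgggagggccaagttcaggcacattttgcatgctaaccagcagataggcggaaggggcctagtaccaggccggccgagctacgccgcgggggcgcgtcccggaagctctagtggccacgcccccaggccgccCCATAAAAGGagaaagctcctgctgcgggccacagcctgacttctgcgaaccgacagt
Zc3h12a: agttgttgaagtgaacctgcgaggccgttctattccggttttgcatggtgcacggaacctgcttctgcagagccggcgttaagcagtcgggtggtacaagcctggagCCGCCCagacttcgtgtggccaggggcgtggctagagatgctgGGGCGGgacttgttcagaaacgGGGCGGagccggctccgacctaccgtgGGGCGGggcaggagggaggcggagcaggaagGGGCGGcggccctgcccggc
Zfp36l1: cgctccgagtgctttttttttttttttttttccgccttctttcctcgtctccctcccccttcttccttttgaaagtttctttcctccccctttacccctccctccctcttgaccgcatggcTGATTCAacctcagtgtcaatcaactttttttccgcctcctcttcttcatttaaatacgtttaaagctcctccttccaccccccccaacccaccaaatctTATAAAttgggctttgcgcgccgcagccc

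A set of 6 motifs were searched on both strands of these windows: the NF-kB consensus and the CArG box by name, TATAAA, the AP-1 motif TGANTCA, the CRE core TGACG and the GC box GGGCGG. The CArG box, the motif bound by serum response factor, begins at position -58 of Zfp36, where positions count back from the start. It shares 1 base with a GC box that begins at -63 and is left in lower case. The CArG box is held by 1.47% of 32851 promoter windows of the same length in the table. Zc3h12a holds GC boxes at -143, -100, -78, -51 and -20 and none of the other motifs, and GC boxes are common, at 32.7% of windows. In Zfp36l1 the AP-1 motif begins at -129 (6.75% of windows) and TATAAA at -29 (12.4%). The NF-kB consensus, present in 3.90% of windows, was found in none of the windows of the 7 genes that the table holds, which says only that these letters are not there. TGACG, present in 17.8% of windows, was found in Khsrp and at the second listed start of Zc3h12c, and Rc3h1 holds the AP-1 motif at -133. Zfp36l2 has no window in the promoter table and was not searched.

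Zfp36, the tristetraprolin gene, measured 11.13, 11.16 and 11.38 on the LPS arrays, 9.49, 9.68 and 9.62 on the IL-4 arrays and 9.09, 9.19 and 9.31 on the PBS arrays. All 3 LPS arrays lay above all others, and the IL-4 arrays lay above the PBS arrays by a narrow gap. LPS raised it by 2.03 ± 0.09 (SE, n = 3 per group) over PBS, or 4.08-fold, with a 95% interval of 1.82 to 2.23 on the log2 scale and an adjusted p of 5.96e-07 (limma). This was rank 265 of the 21212 rows ordered by change. LPS raised 5 of the 8 genes and lowered 2, where 15.4% of all rows were called higher and 22.4% lower.

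The close relatives of Zfp36 behaved otherwise. Zfp36l1 measured 10.02, 10.12 and 10.24 on the LPS arrays, 10.21, 10.30 and 10.20 on the IL-4 arrays and 10.09, 10.13 and 10.36 on the PBS arrays. The conditions overlapped, with the third array highest in both LPS and PBS cells. The difference of LPS from PBS was -0.07 with an interval of -0.26 to 0.13 (adjusted p 0.584), and the value was 0.047 with array medians subtracted and 0.015 without PBS replicate 3. Zfp36l2 measured 10.17, 10.25 and 10.42 on the LPS arrays, 10.55, 10.53 and 10.53 on the IL-4 arrays and 10.88, 10.93 and 10.82 on the PBS arrays. The 3 conditions did not overlap, in the order PBS, IL-4 and LPS from high to low. With LPS it fell by 0.60 ± 0.07 (SE), 1.52-fold, with an interval of -0.76 to -0.44 and an adjusted p of 1.79e-04, and over 7 arrays the change was -0.70 (adjusted p 2.14e-05).

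Zc3h12a, which encodes Regnase-1, was also raised by LPS. It measured 9.86, 9.86 and 9.62 on the LPS arrays, 8.08 on each of the 3 IL-4 arrays and 7.48, 7.51 and 7.16 on the PBS arrays. The conditions were well separated, and the third array was lower than the other 2 in both LPS and PBS cells, by 0.24 and 0.33. The rise over PBS was 2.40 ± 0.10 (SE), 5.27-fold, with an interval of 2.16 to 2.63 and an adjusted p of 4.75e-07, at rank 189 of all rows. The equal IL-4 values are a property of the deposited table, in which 6629 rows (31.3%) repeat a value on 2 or more arrays, so no spread of this gene could be had among the IL-4 arrays.

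Zc3h12c, whose product belongs to the same endonuclease family, had a rise whose interval overlapped that of Zc3h12a. It measured 10.81, 10.88 and 10.24 on the LPS arrays, 8.89, 8.85 and 8.89 on the IL-4 arrays and 8.43, 8.47 and 8.30 on the PBS arrays. The conditions again did not overlap, although the third LPS array was 0.60 below the mean of the other 2. LPS raised it by 2.24 ± 0.15 (SE), 4.74-fold, with an interval of 1.90 to 2.59 (adjusted p 6.98e-06, rank 214), and over 7 arrays the rise was 2.39 (adjusted p 9.71e-08). The 7-array rises were 2.37 for Zc3h12a and 2.01 for Zfp36, so the order of both endonuclease genes depends on the arrays used.

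Rc3h1, the roquin gene, measured 10.24, 10.16 and 10.09 on the LPS arrays, 9.80, 9.80 and 9.75 on the IL-4 arrays and 9.85, 9.83 and 9.79 on the PBS arrays. Only LPS set it apart, while the IL-4 and PBS arrays overlapped. The rise with LPS was 0.34 ± 0.05 (SE), 1.27-fold (adjusted p 8.41e-04), and 0.36 over 7 arrays (adjusted p 6.16e-04). These 5 changes, in Zfp36, Zfp36l2, Zc3h12a, Zc3h12c and Rc3h1, passed the test under each of 20 other settings.

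The last 2 genes changed little. Khsrp measured 9.01, 9.12 and 9.08 on the LPS arrays, 9.30, 9.27 and 9.27 on the IL-4 arrays and 9.21, 9.23 and 9.22 on the PBS arrays. LPS values lay below both other conditions, and the change against PBS was -0.15 ± 0.05 (SE), with an interval of -0.26 to -0.05 and an adjusted p of 0.0306. Elavl1, the HuR gene, measured 10.76, 10.76 and 10.83 on the LPS arrays, 10.80, 10.86 and 10.84 on the IL-4 arrays and 10.66, 10.65 and 10.63 on the PBS arrays. Both treatments lay above PBS and overlapped each other, and the LPS change was 0.13 ± 0.05 (SE), with an interval of 0.03 to 0.24 and an adjusted p of 0.0454. Neither LPS call was firm. That of Elavl1 was lost when any single array was left out (highest adjusted p 0.105), over 7 arrays (0.0990), in a fit blocked on the replicate number (0.0617) and after quantile normalization (0.040, adjusted p 0.577), and that of Khsrp was lost once array medians were subtracted (-0.04, adjusted p 0.559), without LPS replicate 1, IL-4 replicate 2 or 3 or any PBS array (0.0512 to 0.0943), and in a blocked fit of only the 6 arrays compared (0.0514).

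**Figure D2:**
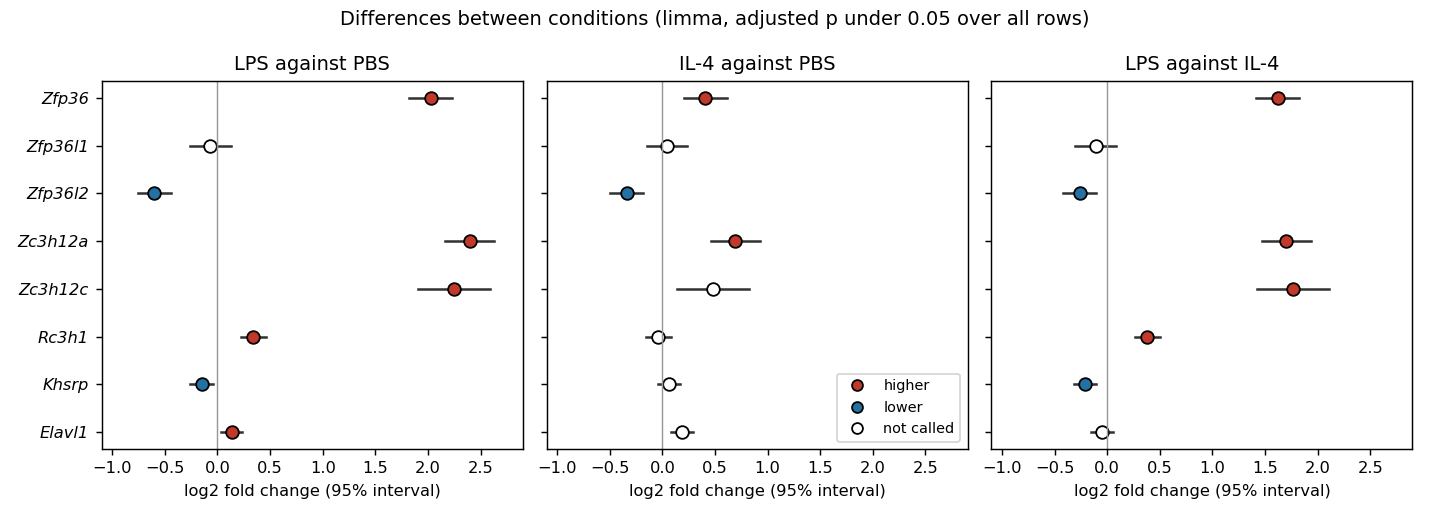
Log2 fold change with its 95% interval for the 8 genes in LPS against PBS, IL-4 against PBS and LPS against IL-4 (limma, 3 arrays per group), coloured where the adjusted p over all rows is under 0.05. Zfp36, Zc3h12a and Zc3h12c stand 2.03 to 2.40 above PBS with LPS and at most 0.69 above it with IL-4.

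With IL-4 the test called 2 of the 8 genes higher and 1 lower than in PBS cells, against 3.35% and 2.05% of all rows. Zc3h12a was higher by 0.69 ± 0.10 (SE), 1.62-fold, with an interval of 0.46 to 0.93 (adjusted p 0.00688, rank 236 of all rows), and this held with any single array left out (0.58 to 0.76). It missed the threshold in the unmoderated test that the methods name (adjusted p 0.0706) and in a fit of the 6 arrays blocked on the replicate number (0.0585). Zfp36 was higher by 0.41 ± 0.09 (SE), 1.33-fold, with an interval of 0.20 to 0.61 (adjusted p 0.0369). Zfp36l2 was lower, at -0.34 ± 0.07 (SE, adjusted p 0.0271). Both of these calls leaned on single arrays: Zfp36 lost its call without LPS replicate 2, PBS replicate 1 or 2 or any IL-4 array (adjusted p 0.0579 to 0.138), and Zfp36l2 without PBS replicate 1 or 2 or any IL-4 array (0.0867 to 0.112). Both were also lost in the blocked fit of the 6 arrays (0.0707 and 0.0780), and that of Zfp36 in the unmoderated test (0.108).

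The IL-4 and PBS arrays of Zc3h12c did not overlap either, and the difference was 0.48 ± 0.15 (SE), 1.39-fold, with an interval of 0.14 to 0.82. Its adjusted p was 0.114 over all 9 arrays and 0.00319 without LPS replicate 3, an array that enters this comparison only through the shared estimate of spread. Elavl1 was 0.19 above PBS with an interval of 0.08 to 0.29 (adjusted p 0.0535), and 0.18 above it over 7 arrays (adjusted p 0.0149). The remaining 3 genes had differences of 0.04 (Zfp36l1, interval -0.15 to 0.24), -0.04 (Rc3h1, -0.15 to 0.08) and 0.06 (Khsrp, -0.04 to 0.17). Over 7 arrays 4 of the 8 genes were called higher with IL-4 and 1 lower, where 16.6% and 13.5% of all rows were, with Zfp36 at 0.46 (adjusted p 0.00210) and Zc3h12a at 0.58 (adjusted p 1.14e-04). In that fit the cilia genes were also called higher with IL-4, and their part in these values was not tested. The fibroblast and meningeal markers that moved with IL-4 averaged 8.73 to 8.76 on the IL-4 arrays and 8.02 to 8.16 on the PBS arrays as a list of 8, and their part in these differences was not tested.

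LPS and IL-4 were also set against each other. LPS-treated cells were higher than IL-4-treated cells in 4 of the 8 genes and lower in 2, where 21.0% and 25.9% of all rows were called higher and lower. Zc3h12c differed by 1.77 ± 0.15 (SE), 3.40-fold (adjusted p 2.82e-05), Zc3h12a by 1.70 ± 0.10, 3.25-fold (3.49e-06), Zfp36 by 1.62 ± 0.09, 3.07-fold (2.17e-06) and Rc3h1 by 0.38 ± 0.05 (4.32e-04). The 2 that were lower with LPS were Zfp36l2, at -0.26 ± 0.07 (adjusted p 0.0144), and Khsrp, at -0.21 ± 0.05 (0.00578), and neither passed once array medians were subtracted (-0.11, adjusted p 0.194, and -0.06, 0.350). Between LPS and IL-4 the differences of Zfp36l1 (-0.11, interval -0.30 to 0.08) and Elavl1 (-0.05, -0.15 to 0.05) did not pass. Over 7 arrays Zfp36l1 was called lower with LPS (-0.17, adjusted p 0.0289). That fit gave 4 rises and 3 falls among the 8 genes, where 29.8% and 32.3% of all rows were called. The LPS and IL-4 comparisons with PBS use the same 3 PBS arrays, so the side-by-side values of a gene in both are not independent.

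As a group the 8 genes had a median change of 0.24 with LPS and 0.12 with IL-4, beside 0.0051 and -0.02 over all rows. Without the third LPS and PBS arrays 4 of the 8 genes rose with LPS and 2 fell, where 19.1% and 28.3% of all rows did, and Elavl1 was the call that was lost.

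The nearest relatives and related regulators of these genes, 11 in all, had 6 rises, 1 fall and 4 genes not called with LPS. The shares of all rows called were 15.4% higher and 22.4% lower. Arid5a, whose product stabilizes Il6 mRNA in mouse cells and opposes Regnase-1, measured 9.14, 8.95 and 9.17 on the LPS arrays, 7.39, 7.41 and 7.24 on the IL-4 arrays and 7.53, 7.24 and 7.52 on the PBS arrays. LPS arrays stood clear of the others, which overlapped, with a rise over PBS of 1.66 ± 0.10 (SE), 3.15-fold (adjusted p 3.27e-06). N4bp1, which encodes a nuclease related to Regnase-1, measured 11.32, 11.30 and 11.43 on the LPS arrays, 10.42, 10.41 and 10.41 on the IL-4 arrays and 10.15, 10.11 and 10.08 on the PBS arrays. It was higher with LPS by 1.24 ± 0.05 (SE), 2.36-fold (adjusted p 3.96e-07), and it was the 1 gene of this list called with IL-4, at 0.30 (adjusted p 0.0126), a call that was lost without PBS replicate 2 or any IL-4 array (0.0534 to 0.0598).

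The Zc3h12 family was not uniform. Zc3h12b measured 6.69, 6.71 and 6.98 on the LPS arrays, 7.81, 7.63 and 7.70 on the IL-4 arrays and 7.34, 7.25 and 7.54 on the PBS arrays, and fell with LPS by 0.58 ± 0.10 (SE, adjusted p 0.00191). Zc3h12d measured 7.31, 7.17 and 7.03 on the LPS arrays, 6.66, 6.34 and 6.38 on the IL-4 arrays and 6.82, 6.75 and 6.69 on the PBS arrays, and rose with LPS by 0.42 ± 0.10 (SE, adjusted p 0.0111). Against IL-4 these 2 genes differed in opposite directions, at -0.92 for Zc3h12b and 0.71 for Zc3h12d, and neither was called in IL-4 against PBS (0.34 and -0.29). Among the neuronal relatives of HuR, Elavl2 rose by 0.99 (adjusted p 6.19e-05) and Elavl4 by 0.75 (0.0148) with LPS, while Elavl3 was at 0.05 (0.859). Rc3h2, the second roquin gene, was higher by 0.14 (adjusted p 0.0325), a call lost over 7 arrays (0.0637) and when any of 7 single arrays was left out (0.0542 to 0.0887; all but LPS replicate 2 and IL-4 replicate 1). The relatives of KSRP, Fubp1 and Fubp3, were at 0.10 and -0.03 and Zfp36l3 at -0.13, none of them called. Over 7 arrays this list had 5 rises and 1 fall with LPS, where 19.1% and 28.3% of all rows were called higher and lower. With IL-4 it had 4 rises and 2 falls, where the shares were 16.6% and 13.5%.

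Of 11 genes whose products control the proteins themselves, 6 rose with LPS, 2 fell and 3 were not called. Among all rows 15.4% were called higher with LPS and 22.4% lower. Malt1, the protease that cleaves Regnase-1 and roquin in T cells, measured 11.58, 11.55 and 11.20 on the LPS arrays, 9.44 on each IL-4 array and 9.17, 9.10 and 8.35 on the PBS arrays. Its rise with LPS was 2.57 ± 0.20 (SE), 5.93-fold (adjusted p 1.89e-05). Its IL-4 difference of 0.57 was not called (0.159), although the groups did not overlap. Mapkapk2, the p38-activated kinase that phosphorylates tristetraprolin, rose by 1.15 ± 0.11 (SE), 2.22-fold (adjusted p 4.90e-05), and Dusp1, the phosphatase that turns p38 off, by 0.86 ± 0.22 (0.0138). Dusp1 measured 10.02, 9.99 and 9.91 on the LPS arrays, 9.13, 9.02 and 8.98 on the IL-4 arrays and 9.50, 9.33 and 8.50 on the PBS arrays. PBS replicate 3 was the lowest of all 9 values, and the rise was 0.56 without it (adjusted p 6.83e-04) and 0.59 over 7 arrays (4.66e-04).

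Members of the p38 cascade moved in both directions. Map2k6, a kinase that activates p38, measured 5.87, 5.63 and 6.13 on the LPS arrays, 6.71, 6.71 and 6.77 on the IL-4 arrays and 7.07, 6.95 and 7.04 on the PBS arrays, and fell with LPS by 1.15 ± 0.11 (SE, adjusted p 6.58e-05). Mapk14, the main p38 kinase, was at -0.34 (0.0412), but at -0.20 without LPS replicate 3 (0.0252) and -0.23 over 7 arrays (0.00441), and the call was lost without any single IL-4 or PBS array (0.0501 to 0.115). Mapk11, p38 beta, was at 0.46 with LPS (3.38e-04) and 0.33 with IL-4 (0.0158), the IL-4 call lost without PBS replicate 2 or any IL-4 array (0.0505 to 0.0669). Ikbkb, the kinase that marks Regnase-1 for degradation, rose by 0.37 (0.00887) and the phosphatase subunit Ppp2cb by 0.16 (0.0293), which missed the threshold without LPS replicate 1 or 3, IL-4 replicate 2 or PBS replicate 1 or 2 (0.0502 to 0.105). The genes not called were Mapkapk3 at -0.83 (0.0527), Map2k3 at 0.30 (0.156) and Ppp2ca at 0.08 (0.390), and over 7 arrays Mapkapk3 (-0.84, 3.59e-05) and Map2k3 (0.21, 0.00842) passed. With IL-4, Mapk11 was the only call in this list over all 9 arrays, and over 7 arrays 4 of the 11 rose and 2 fell. The 7-array fit called 16.6% of all rows higher with IL-4 and 13.5% lower.

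**Figure D3:**
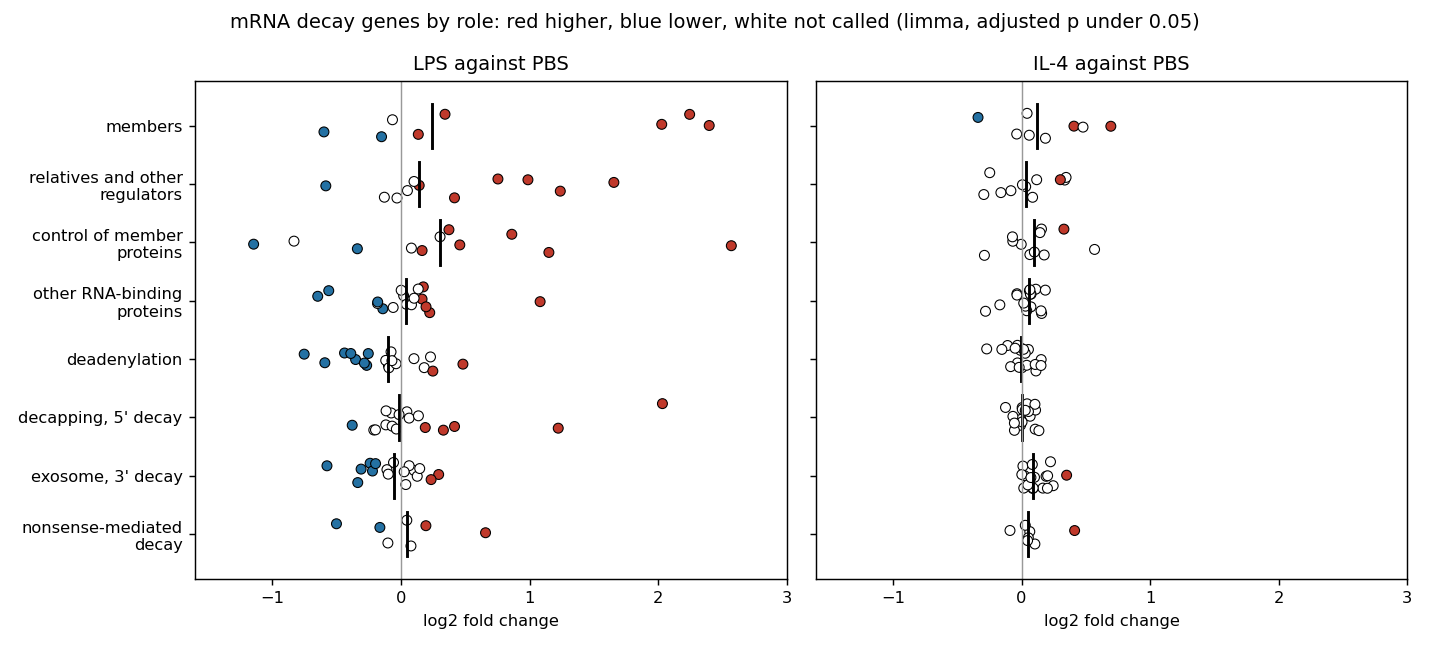
Log2 fold change against PBS of every measured gene in 8 lists of mRNA decay genes, for LPS and for IL-4, with a black bar at the median of each list. Red points were called higher and blue lower (limma, adjusted p under 0.05), and with LPS single genes such as Dcp2 (2.03) and Malt1 (2.57) stand far from lists whose medians lie between -0.10 and 0.30.

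The enzymes that these regulators recruit were examined list by list. For comparison, 15.4% of all rows were called higher with LPS and 22.4% lower. Of 19 deadenylation genes 2 rose with LPS and 8 fell, with a median of -0.10. The 11 subunits of CCR4-NOT gave 1 rise and 4 falls. Tob1, an adaptor that ties CCR4-NOT to its targets, fell by 0.75 (adjusted p 9.48e-05), the poly(A)-specific ribonuclease gene Parn fell by 0.59 (7.34e-04), and Btg2, another adaptor, rose by 0.48 (0.00950), or 0.28 over 7 arrays (0.00461). Of 17 genes for decapping and 5′ decay 5 rose and 1 fell. Dcp2, the decapping enzyme, measured 10.63, 10.58 and 10.59 on the LPS arrays, 8.71, 8.61 and 8.69 on the IL-4 arrays and 8.61, 8.63 and 8.45 on the PBS arrays. Its rise of 2.03 ± 0.06 (SE), 4.09-fold (adjusted p 6.10e-08), set the LPS arrays apart, and the IL-4 and PBS arrays overlapped. Over 7 arrays with LPS, deadenylation had 4 rises and 8 falls, and decapping 5 rises and 3 falls. That fit called 19.1% of all rows higher and 28.3% lower.

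Xrn1, the exonuclease that degrades decapped mRNA from its 5′ end, measured 10.11, 10.15 and 9.96 on the LPS arrays, 8.79, 8.81 and 8.79 on the IL-4 arrays and 8.81, 8.87 and 8.88 on the PBS arrays. With LPS it rose by 1.22 ± 0.06 (SE), 2.33-fold (adjusted p 8.38e-07), and Lsm14a, a processing body gene, rose by 0.42 (4.86e-04). Of 17 exosome and 3′ decay genes 2 rose and 6 fell, led by the core subunits Exosc7 at -0.58 (adjusted p 1.57e-04), Exosc5 at -0.34 (0.00117) and Exosc8 at -0.31 (0.00165). Of 7 nonsense-mediated decay genes 2 rose and 2 fell, with Smg8 at 0.66 (6.88e-04), Smg6 at -0.50 (0.00713) and Smg1 at 0.19 (0.00796). Both counts stand beside 15.4% of all rows called higher with LPS and 22.4% called lower.

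Other proteins that bind AU-rich or nearby sequences, 17 genes, had 5 rises and 4 falls with LPS. Of all rows 15.4% were called higher and 22.4% lower, and the unmoderated test called 3 of the 17 genes. Igf2bp1, which protects bound mRNAs, rose by 1.08 ± 0.24 (SE, adjusted p 0.00769), and replicate 3 was the lowest of both the LPS and the PBS arrays (7.05 and 6.14). Celf2 fell by 0.65 (6.76e-05) and Tia1, a translational silencer of AU-rich mRNAs, by 0.56 (0.0132). With IL-4, limma called 0 genes of the binders, of deadenylation and of decapping, with 3, 0 and 1 genes at an unadjusted p under 0.05, and the unmoderated test called 1, 0 and 0. Over 7 arrays these counts were 6 of 17, 4 of 19 and 0 of 17, in a fit that called 16.6% of all rows higher and 13.5% lower. Single calls with IL-4 were Exosc1 at 0.35 (adjusted p 0.0193), lost without IL-4 replicate 2 or 3 or PBS replicate 2 (0.0581 to 0.0921), and Smg5, a nonsense-mediated decay factor, at 0.41 (0.00298). In the 7-array fit the exosome list had 5 of 17 genes called higher and the nonsense-mediated decay list 2 of 7, where 16.6% of all rows were.

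Of 15 mRNAs known as targets of tristetraprolin, Regnase-1 or roquin, 13 rose with LPS, with a median of 3.30. Among all rows 15.4% were called higher with LPS. Il6 measured 12.23, 12.37 and 12.17 on the LPS arrays, 4.25, 4.34 and 4.42 on the IL-4 arrays and 3.55, 3.71 and 3.31 on the PBS arrays, a rise of 8.73 with LPS (adjusted p 3.05e-09). Ptgs2, the inducible cyclooxygenase gene, rose by 5.63 (6.32e-07) and the chemokine gene Cxcl2 by 5.56 (4.74e-08). Icos, a T cell costimulator gene targeted by roquin, was at -0.26 (0.0495), a fall that was not called over 7 arrays or without any single array other than LPS replicate 1 (0.0643 to 0.153), and Tnfrsf4 at 0.07 was not called. With IL-4, 5 of the 15 rose, where 3.35% of all rows did, among them Ptgs2 by 1.62 (0.00874), Cxcl2 by 1.32 (0.00234) and Il6 by 0.81 (0.00346). The IL-4 calls of Tnf (0.72, adjusted p 0.0167) and Nfkbiz (0.31, 0.0487) leaned on single arrays. That of Tnf was lost when any single IL-4 array was left out (0.0662 to 0.0719), and that of Nfkbiz for any of 7 single arrays (0.0573 to 0.168). The unmoderated test called 2 of the 15 genes with IL-4. Over 7 arrays 9 rose with IL-4 and 1 fell, where 16.6% and 13.5% of all rows were called higher and lower. Arrays measure how much mRNA is present, so neither the decay rate of a target nor the amount of any regulator protein was measured.

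Profiles over the 9 arrays were compared for the 3 genes that changed by 1 or more, as the root mean square difference of values centred on the mean of each row. The rows nearest to Zfp36 were Ttc39b (0.095), Trp53i11 (0.099) and Fnbp1l (0.110). Nearest to Zc3h12a were Rnd1 (0.108) and 2 genes of the NF-kB system, Nfkb2 (0.111) and Nfkbie (0.121). For Zc3h12c they were Stk38l (0.102), the adhesion receptor gene Icam1 (0.103) and Rasgef1b (0.121). The lists shared no gene, and each of the 9 rows was highest on the LPS arrays, as the plot of centred profiles shows. The likeness rests mainly on the step between the LPS arrays and the others and is given as a description.

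**Figure D4:**
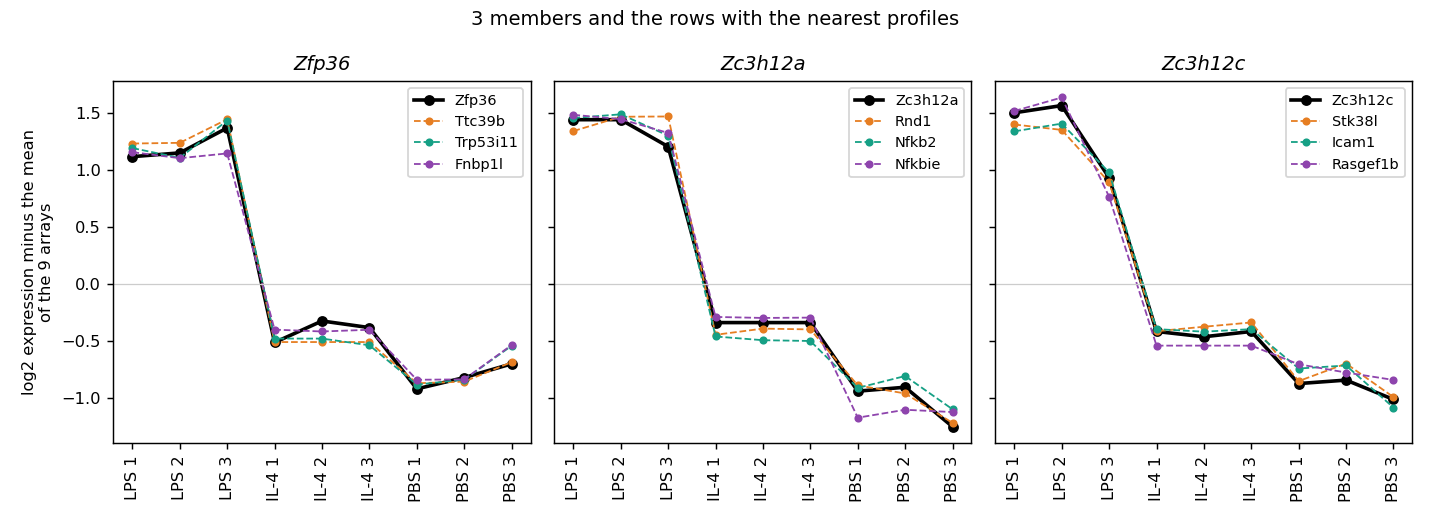
Log2 expression minus the mean of the 9 arrays for Zfp36, Zc3h12a and Zc3h12c (black) and for the 3 rows with the nearest profile to each (dashed), array by array. LPS arrays lie above the mean and all IL-4 and PBS arrays below it, and for Zc3h12c and its neighbours the third LPS array is lower than the first and second.

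**Figure D5:**
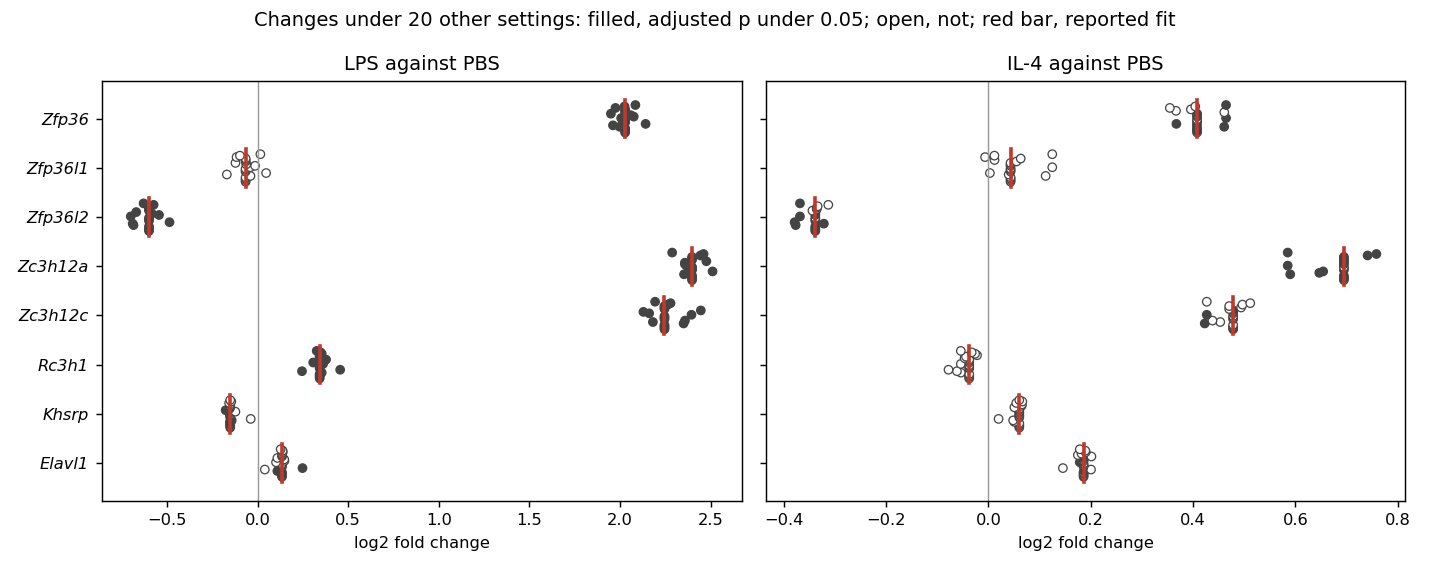
Log2 fold change of the 8 genes under 20 other settings (points, filled where the adjusted p is under 0.05) and in the reported fit (red bar), for LPS and IL-4 against PBS. The LPS changes of Zfp36, Zfp36l2, Zc3h12a, Zc3h12c and Rc3h1 are filled throughout, whereas those of Khsrp and Elavl1 and the IL-4 changes hold both filled and open points or only open ones.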

How the data were processed

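The deposited table of Affymetrix Mouse Exon 1.0 ST arrays holds log2 expression, which the authors derived by RMA with the affy package (versions not given in the sources used here), with 1 row per gene identifier. RMA corrects the background, equalizes the distributions by quantiles and summarizes the probes of a gene by median polish, which can return the same value on several arrays. Of 21212 rows, 18786 had 1 gene symbol, 43 of them through another identifier than their own, 6 had several and 2420 had none; unnamed rows stayed in the fit. The array medians lay between 7.20 and 7.39, and columns of no sample numbered 0. The number of arrays limits the precision.

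Conditions came from the sample labels. LPS against PBS, IL-4 against PBS and LPS against IL-4 were contrasts of 1 limma fit with eBayes to the 9 arrays, without a block. The versions were limma 3.58.1, R 4.3.3 and statmod 1.5.0, with 6 residual and 2.38 prior degrees of freedom. Benjamini-Hochberg adjustment covered all 21212 rows, and a call is an adjusted p under 0.05. The 8 genes and the lists were chosen with earlier results of these data known. Named were all 8 genes, the lists of relatives and of control genes in full, the 3 largest called changes of each other list, and the 3 nearest profiles of each gene that changed by 1 or more. Icos, Tnfrsf4, Tnf and Nfkbiz, outside this rule, were named after their values had been seen. The cell type markers given by name are also outside it. A few genes of the lists and markers are not reported here.

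Same-numbered LPS and PBS arrays deviated together from their group means (r 0.578, 0.651 and 0.800). LPS replicate 2 with PBS replicate 1 (0.605) and LPS replicate 1 with PBS replicate 2 (0.542) did so about as much. These values therefore do not show that replicates 1 and 2 were paired by number. The replicate block was used only among the alternatives. Alternatives were the t-test of the methods, the 6 arrays compared, trended and robust eBayes, array weights, quantile normalization, subtracted array medians, the dimmest 33.3% of rows left out, the replicate block, 7 arrays, and each array left out. The fit was tested on simulated data. Promoter windows came from RefSeq (GRCm38.p6). Figures were drawn with Python 3.11.15, numpy 2.4.6, pandas 2.3.3 and matplotlib 3.10.9.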

Additional observations from a re-analysis of the deposited data

How the results depend on the processing

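Over 20 alternatives and 3 comparisons, 480 values of the 8 genes were recomputed. Of these 419 kept their direction and their side of the threshold, 42 lost the call, 14 gained one and 5 changed sign. The sign changes were in differences near 0: Zfp36l1 in LPS against PBS was 0.047 with array medians subtracted and -0.12 to 0.015 with 1 array left out, the highest without PBS replicate 3; in LPS against IL-4 it was 0.044 with medians subtracted, in IL-4 against PBS it was -0.0066 to 0.12 with 1 array left out, the lowest without PBS replicate 1, and Elavl1 in LPS against IL-4 was 0.10 with medians subtracted. That scaling moved the median of all rows to 0.12 in LPS against PBS and 0.18 in LPS against IL-4, and the share of higher calls to 63.9% and 72.1%, against 40.8% and 44.8% as reported.

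The count of rows called in IL-4 against PBS, 1146 as reported, was 716 with the t-test, 8295 with array weights, 287 with the replicate block over only the 6 arrays, 6389 over 7 arrays and 466 to 2033 with 1 array left out. With array weights 49.9% of those calls were higher, with medians subtracted 50.3%, and as reported 62.0%. In LPS against PBS 8014 rows were called, and 5303 with the t-test. At the unadjusted p under 1e-04 of the methods, the t-test held 812, 152 and 1291 rows in LPS against PBS, IL-4 against PBS and LPS against IL-4, and 2, 0 and 2 of the 8 genes. Of the 8 genes 3 were called in IL-4 against PBS, against 5 with array weights, 0 with the replicate block over only the 6 arrays (5 at an unadjusted p under 0.05 in the reported fit), 5 over 7 arrays and 1 to 5 with 1 array left out. The counts with 1 array left out were 5 to 6 in LPS against PBS and 6 in LPS against IL-4. The fits with the replicate number as a block changed the LPS against PBS calls of Elavl1 and Khsrp given above and no other in that comparison. The cause of these shifts was not tested. Each condition has 3 arrays, and small differences such as those of Khsrp and Elavl1 are at the limit of what they resolve.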
